A study of Mus musculus with 16 samples.

Results

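The expression of 34 mouse genes of sugar breakdown and of the response to low oxygen was described across 4 cell populations sorted from the femur. The genes were picked by name, with earlier results of these data known, and all 34 were found among the 22559 genes of the deposited expression table. By role they comprise 4 transporters of glucose and lactate, 11 genes of upper glycolysis, 6 of lower glycolysis, 4 that set the fate of pyruvate, 5 of oxygen sensing and 4 further targets of the hypoxia response. The groups were periosteal stem cells (PSC), periosteal progenitors of type 1 (PP1), periosteal progenitors of type 2 (PP2), and mesenchymal stem cells (MSC) that the labels call endosteal and negative for CTSK-mGFP. Each group had 4 libraries, 16 in all. All of them came from mice of the strain C57/B6 at postnatal day 6, carrying CTSK-cre+ mTMG, and the labels place them in 1 litter and on 1 day. In this genotype the promoter of cathepsin K (Ctsk) drives Cre, which switches a membrane-bound red reporter to a green one in the cells that used it and in their descendants. The reporter thus marks a history of Cre activity and not current Ctsk transcription. The surface markers of each gate and the number of animals behind each library are not given in the labels. P-values here therefore measure the spread between these libraries, which may be technical.

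Glycolysis splits glucose into pyruvate in the cytosol, and lactate dehydrogenase turns pyruvate into lactate when it is not sent to the mitochondria. Cells low in oxygen stabilize hypoxia-inducible factors (HIF), which raise transcription of glucose transporters, most glycolytic enzymes, lactate exporters and genes such as Bnip3. With enough oxygen, prolyl hydroxylases mark the HIF alpha subunits for destruction through the von Hippel-Lindau protein, so HIF is set mainly at the protein level, which RNA does not show. Growth-plate cartilage lacks blood vessels, and chondrocytes are known for strong glycolysis and for their need of Hif1a.

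Values are normalized counts: the authors scaled each library's read counts per gene by a single size factor. Each library held between 22.31 and 48.36 M recovered reads, and 11653 to 15696 genes had a read. Reads ran from 28.53 to 32.65 M in PSC, 22.31 to 32.68 M in PP1 and 24.3 to 41.15 M in PP2, against 39.45 to 48.36 M in MSC. Genes with a read numbered 12986 to 13919 in PSC, 12580 to 12922 in PP1 and 11653 to 13165 in PP2, against 15506 to 15696 in MSC. Every MSC library thus had more genes with a read than any other library. The part of depth in the differences from MSC was not tested. Ctsk itself had 2293 to 3457 normalized counts in PSC, 9643 to 13927 in PP1, 6377 to 8071 in PP2, against 1971 to 2271 in MSC. Cd200, a surface protein used to mark skeletal stem cells, ran from 5064 to 6748 in PSC, 671 to 1065 in PP1 and 1603 to 2570.2 in PP2, against 3278 to 4665 in MSC. Limma's moderated test was run over the 13797 genes with at least 10 normalized counts in at least 4 libraries. A difference was called when its Benjamini-Hochberg adjusted p was under 0.05. Every log2 difference below is between group means of log2(normalized count + 1), PSC minus the group named after it unless stated, and ± gives its standard error. All 34 genes passed that filter.

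The glycolysis and hypoxia genes took about 1% of the normalized total in PSC and about 0.5% in the other groups. Their summed share was 1.04, 1.13, 0.920 and 1.07% in PSC, 0.518, 0.511, 0.473 and 0.472% in PP1, 0.495, 0.485, 0.507 and 0.524% in PP2, against 0.5004, 0.581, 0.499 and 0.576% in MSC. Every PSC library was above every other library. Type II collagen alone took 6.01 to 10.9% of PSC totals and 15.3 to 21.6% of MSC totals. Without it the share averaged 1.13 ± 0.098% in PSC, 0.512 ± 0.025% in PP1 and 0.530 ± 0.019% in PP2, against 0.657 ± 0.034% in MSC (SD, n = 4 each). In these bulk libraries, a population with fewer cells of a type and one with less RNA per cell cannot be told apart.

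Counted gene by gene, 18 of the 34 rose in PSC relative to PP1 and 1 fell, where 16.1% of all tested genes rose and 15.1% fell (31.2% called in either direction). Relative to PP2, 19 rose and 3 fell in PSC, where 17.6% of all genes rose and 15.2% fell (32.8% in either direction). Relative to MSC, 16 rose and 2 fell in PSC, where 12.1% of all genes rose and 14.2% fell (26.3% in either direction). The median log2 difference of the 34 was 0.81 against PP1, 0.79 against PP2 and 0.33 against MSC, beside medians over all tested genes of 0.04, 0.08 and -0.18 in the same order of comparisons. These 3 comparisons share the PSC libraries and are not independent. In 16 of the 34 genes every PSC library lay above all 12 others, a pattern that 8.46% of all tested genes showed, and in 1 gene, Eno2, every PSC library lay below all 12 others, which 4.7% of genes showed. Libraries did not overlap at all in 20 of the 34 genes between PSC and PP1 (28.9% of all genes), 20 between PSC and PP2 (28.5%) and 24 between PSC and MSC (38.7%). In 2 genes, Hk1 and Epas1, every MSC library lay above all 12 others, which 4.41% of genes showed, and in 1, Pdha1, every MSC library lay below them (1.78%).

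**Figure D1:**
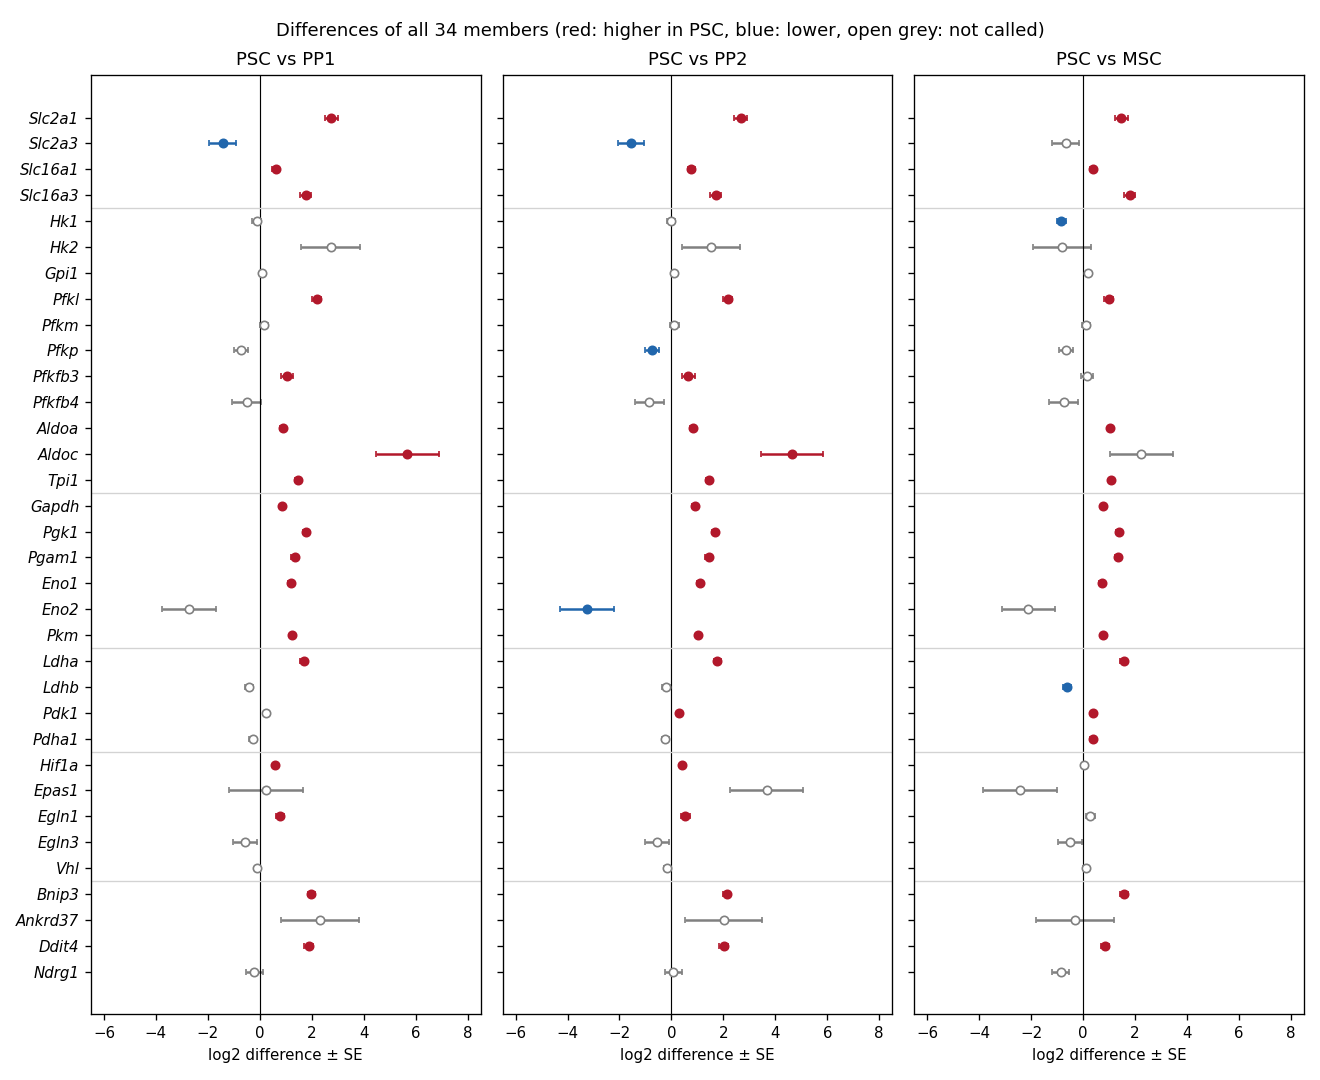
Log2 difference of each of the 34 genes between PSC and PP1, PSC and PP2, and PSC and MSC, with bars for the standard error of the fit over 16 libraries. Red points are genes higher in PSC at an adjusted p under 0.05, blue points are lower and open grey points were not called, and 18, 19 and 16 of the 34 are red in the panels from left to right.

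Markers of other cell states differed between the same groups. Their counts stand beside 16.1, 17.6 and 12.1% of all tested genes higher in PSC than in PP1, PP2 and MSC, and 15.1, 15.2 and 14.2% lower. All 12 cartilage markers of a fixed list (among them Acan, Sox9 and Matn1) rose in PSC relative to PP1 and to PP2, and relative to MSC 3 rose and 2 fell. Their summed level ran from 1676520 to 2489630 normalized counts in PSC, 557232 to 674049 in PP1 and 574528 to 733058 in PP2, against 1682570 to 2240460 in MSC. None was at 0 in all libraries of a group. Of 6 hypertrophic cartilage markers, 5 rose in PSC relative to PP1 and 5 relative to PP2. Relative to MSC 3 of them rose and 1 fell, with a median log2 difference of 1.39. All 5 Schwann cell markers fell in PSC relative to MSC, whereas 2 rose relative to PP1 and 4 relative to PP2. Immediate early genes, a class that cell dissociation is known to induce, rose in PSC in 10 of 10 cases relative to PP1 and in 9 of 10 relative to PP2, and relative to MSC 1 rose and 3 fell. They summed to 156963 to 205227 in PSC, 63073 to 84838 in PP1, 64146 to 85605 in PP2, against 184906 to 261235 in MSC. Of 8 fibroblast markers 7 fell in PSC relative to PP1 and 7 relative to PP2, and relative to MSC 2 rose and 2 fell. They summed to 66535 to 87683 in PSC, 154107 to 219718 in PP1, 152247 to 202722 in PP2, against 68330 to 79853 in MSC. The part of these cell states in the differences of the glycolysis genes was not tested.

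The upstream sequences of 6 genes are shown, all of them genes whose PSC libraries stood above all others, since HIF is known to bind the core ACGTG in the promoters of many such genes. Each is the 250 bases before a RefSeq transcription start (GRCm38.p6), 5′ to 3′ on the gene's strand, and capitals mark ACGTG or its reverse complement CACGT. Slc2a1 (ENSMUSG00000028645) spans chr4:119108711-119137983 and its sequence is chr4:119108495-119108744 on the plus strand. Pgk1 (ENSMUSG00000062070) spans chrX:106187100-106203699, with chrX:106186850-106187099 on the plus strand. Ldha (ENSMUSG00000063229) spans chr7:46841475-46855627, with chr7:46845554-46845803 on the plus strand. Slc16a3 (ENSMUSG00000025161) spans chr11:120948480-120960868, with chr11:120948817-120949066 on the plus strand. Bnip3 (ENSMUSG00000078566) spans chr7:138890836-138909519, with chr7:138909507-138909756 on the minus strand. Tpi1 (ENSMUSG00000023456) spans chr6:124810586-124814296, with chr6:124814159-124814408 on the minus strand, and is shown because it rose in PSC and its window holds no such core. Gene spans are those of GENCODE M21 on GRCm38, so the windows can overlap them where the starts of the annotations differ.
Slc2a1: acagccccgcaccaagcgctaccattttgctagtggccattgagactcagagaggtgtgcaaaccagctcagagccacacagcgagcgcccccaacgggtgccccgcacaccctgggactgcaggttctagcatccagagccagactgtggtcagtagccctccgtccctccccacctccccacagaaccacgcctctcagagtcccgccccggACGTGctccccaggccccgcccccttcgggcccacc
Pgk1: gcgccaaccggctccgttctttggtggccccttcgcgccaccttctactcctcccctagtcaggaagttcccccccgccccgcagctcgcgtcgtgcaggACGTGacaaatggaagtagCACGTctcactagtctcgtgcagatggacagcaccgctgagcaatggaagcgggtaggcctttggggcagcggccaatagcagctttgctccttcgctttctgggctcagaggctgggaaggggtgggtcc
Ldha: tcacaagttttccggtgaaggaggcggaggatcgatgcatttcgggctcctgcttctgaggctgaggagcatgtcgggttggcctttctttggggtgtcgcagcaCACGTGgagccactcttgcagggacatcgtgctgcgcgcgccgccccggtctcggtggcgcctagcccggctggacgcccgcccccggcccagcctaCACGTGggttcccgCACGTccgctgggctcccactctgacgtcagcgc
Slc16a3: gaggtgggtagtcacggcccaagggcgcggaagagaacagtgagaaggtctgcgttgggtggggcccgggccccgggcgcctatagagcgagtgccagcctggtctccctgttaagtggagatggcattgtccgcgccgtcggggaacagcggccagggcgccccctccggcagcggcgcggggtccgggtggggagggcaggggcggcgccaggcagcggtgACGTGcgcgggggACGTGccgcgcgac
Bnip3: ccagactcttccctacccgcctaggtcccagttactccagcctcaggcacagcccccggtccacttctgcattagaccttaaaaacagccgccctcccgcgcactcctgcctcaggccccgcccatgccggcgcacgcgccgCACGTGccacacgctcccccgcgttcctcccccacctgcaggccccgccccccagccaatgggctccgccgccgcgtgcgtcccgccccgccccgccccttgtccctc
Tpi1: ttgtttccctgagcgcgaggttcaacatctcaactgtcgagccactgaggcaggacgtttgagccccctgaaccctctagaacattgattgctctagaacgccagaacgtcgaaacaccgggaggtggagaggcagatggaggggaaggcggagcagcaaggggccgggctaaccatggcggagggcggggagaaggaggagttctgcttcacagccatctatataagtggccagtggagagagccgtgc

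The core was found 1 time for Slc2a1, 2 times each for Pgk1, Slc16a3 and Bnip3, 5 times for Ldha and 0 times for Tpi1, counting both strands. These genes were chosen for display, and their share with a core stands for no larger set. Of the other genes whose PSC libraries stood above all others, Pfkl, Aldoc, Gapdh and Eno1 had it before no start. Slc16a1, Aldoa, Pgam1, Pkm, Egln1 and Ddit4 had it before at least 1. The table has a second RefSeq start for Ldha, and the window before it, chr7:46846832-46847081, is not shown and holds 0. A palindromic CACGTG holds the core on both strands and counts as 2, as in the single run of capitals for Bnip3. RefSeq starts were matched for 31 of the 34 genes, with 44 starts in all, and the table held none for Slc2a3, Epas1 and Ndrg1. At least 1 core lay before 45.5% of these 44 starts, against 16.6% of all 32851 starts in the table. The 34 genes were listed for glycolysis and the hypoxia response, which HIF is known to raise, so the choice of list favours such an excess. Windows of 1 gene can also overlap, and 1 core of Aldoa was counted before 2 starts. GCGTG, the other form of the core, lay before 54.5% of the 44 starts and 28.2% of all starts, and the median GC content was 61.8% before the 44 starts and 52.4% before all. Of the 18 genes that rose in PSC relative to PP1, 13 had ACGTG before at least 1 start, and of the 13 other matched genes 4 did. A match is a string of letters and not a shown binding site, and the windows that lack it say nothing of HIF elsewhere in the gene.

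Of the 4 genes that carry glucose in and lactate out, Slc2a1, Slc16a3 and Slc16a1 rose in PSC relative to each other group, and Slc2a3 fell relative to PP1 and PP2. Among all tested genes, 16.1, 17.6 and 12.1% rose in PSC relative to PP1, PP2 and MSC, and 15.1, 15.2 and 14.2% fell. Slc2a1 encodes GLUT1, the basal glucose transporter, and its normalized counts were 4288, 5687, 5367 and 6730.3 in PSC, 603, 719, 976 and 986 in PP1, 497, 674, 1414 and 1136 in PP2, against 1555, 2011, 2144 and 2223 in MSC. The PSC libraries were all above every other library, MSC came next, and PP1 and PP2 overlapped below them. For Slc2a1 the log2 difference was 2.76 ± 0.26 against PP1 (adjusted p = 9.34e-08), 2.67 ± 0.26 against PP2 (adjusted p = 1.39e-07) and 1.47 ± 0.26 against MSC (adjusted p = 0.000349), or 6.77-fold, 6.36-fold and 2.77-fold in that order. Slc2a3, the high-affinity transporter GLUT3, ran low everywhere, at 68.1, 26.1, 237 and 122 in PSC, 168, 251, 274 and 245 in PP1, 209.9, 264, 337 and 218 in PP2, against 151, 155, 131 and 112 in MSC. Its PSC libraries spread from 26.1 to 237 and overlapped every other group, while all PP1 and PP2 libraries lay above all MSC libraries. Slc2a3 fell in PSC by the test, at -1.43 ± 0.51 against PP1 (adjusted p = 0.0395) and -1.56 ± 0.51 against PP2 (adjusted p = 0.0246), whereas it was -0.67 ± 0.51 against MSC (adjusted p = 0.377). The call against PP1 was lost with a fit of just the 8 libraries, edgeR or DESeq2, and also without PSC replicate 1 or 2, or PP1 replicate 2, 3 or 4 (adjusted p = 0.0733 to 0.153). The call against PP2 was lost with a fit of just the 8 libraries, edgeR or PP2 replicates 1 and 3 both left out, and also without PSC replicate 1 or 2, or PP2 replicate 3 (adjusted p = 0.057 to 0.109).

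Slc16a3 encodes MCT4, the low-affinity carrier that exports lactate from glycolytic cells. It was at 4456, 4591, 3159 and 4546 in PSC, 1284, 1702, 1146 and 882 in PP1, 1183, 941, 1364 and 1697 in PP2, against 856, 1537, 1115 and 1369.6 in MSC. Every PSC library exceeded all 12 others, which overlapped one another. For Slc16a3 the log2 difference was 1.76 ± 0.22 against PP1 (adjusted p = 3.41e-06), 1.71 ± 0.22 against PP2 (adjusted p = 4.79e-06) and 1.80 ± 0.22 against MSC (adjusted p = 9.11e-06). Slc16a1 encodes MCT1, which carries lactate in either direction, and stood at 4284, 3801, 4087 and 4074 in PSC, 2543, 3169, 3198 and 1953 in PP1, 2341, 2452, 2145 and 2592 in PP2, against 3267, 3069, 3405 and 2761 in MSC. PSC was again above all others, by less than for Slc16a3. For Slc16a1 the log2 difference was 0.61 ± 0.13 against PP1 (adjusted p = 0.00143), 0.77 ± 0.13 against PP2 (adjusted p = 0.000139) and 0.38 ± 0.13 against MSC (adjusted p = 0.0388). The call against MSC was lost without PSC replicate 1, 2, 3 or 4, or MSC replicate 1, 2 or 4 (adjusted p = 0.0512 to 0.118), with a log2 difference between 0.32 and 0.42 over the alternatives.

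**Figure D2:**
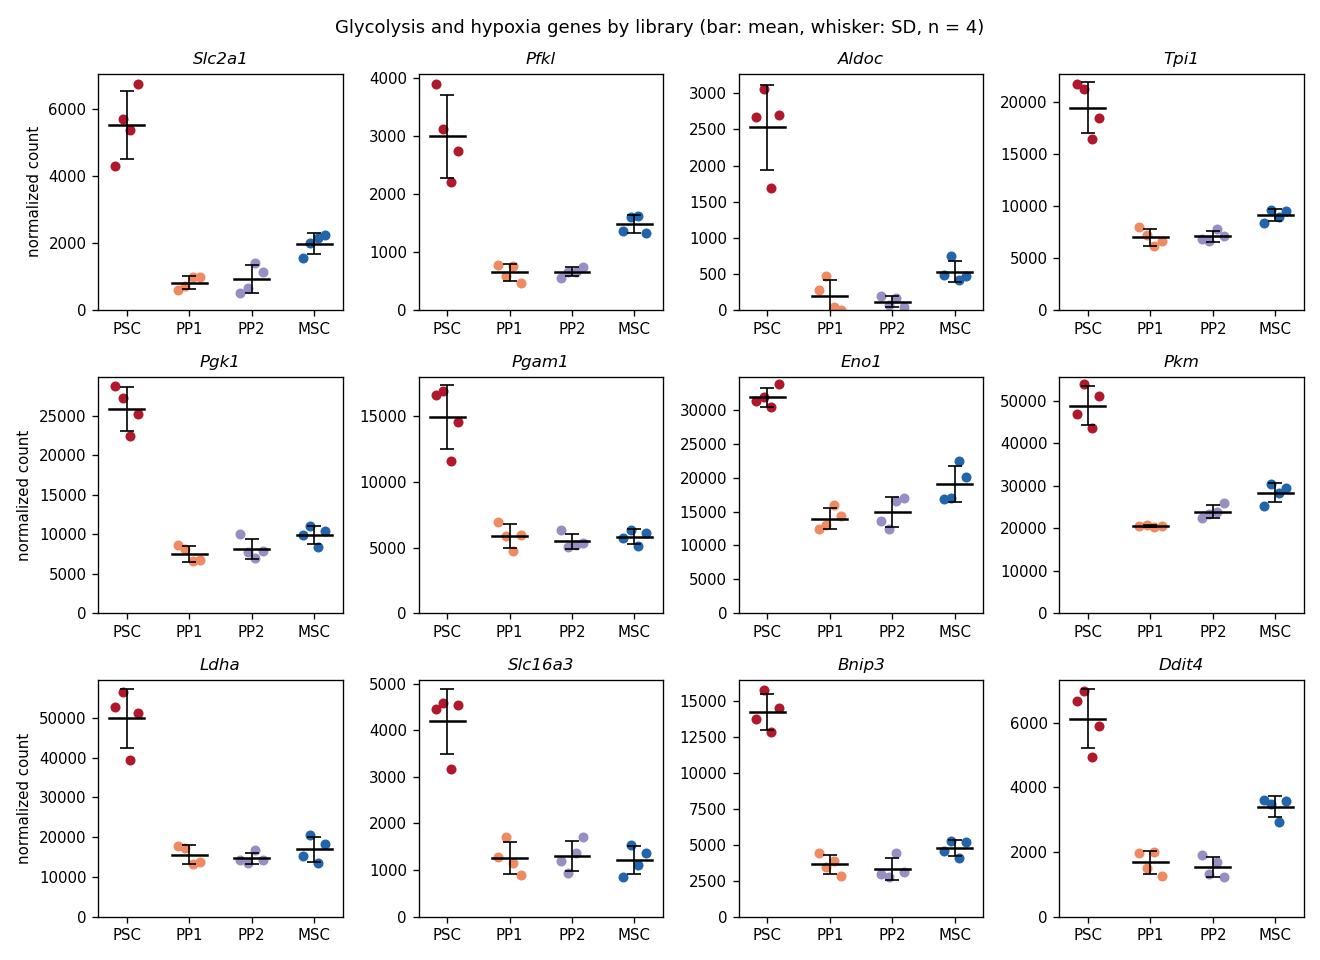
Normalized count of selected glycolysis and hypoxia genes in each of the 16 libraries (points), by group on the horizontal axis, with bars for group means and whiskers for the SD of 4 libraries. For Slc2a1 the PSC libraries lie between 4288 and 6730.3 and all others at or below 2223.

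Upper glycolysis, from glucose to the triose phosphates, had 5 of its 11 genes higher in PSC than in PP1 and none lower, 5 higher and 1 lower than in PP2, and 3 higher and 1 lower than in MSC. Over all tested genes the shares were 16.1, 17.6 and 12.1% higher and 15.1, 15.2 and 14.2% lower in that order of comparisons. The median log2 difference of the 11 was 0.89, 0.66 and 0.16, beside 0.04, 0.08 and -0.18 over all tested genes. Neither form of the first enzyme, hexokinase, was called higher in PSC. Hexokinase 1 (Hk1), which traps glucose as its 6-phosphate, had 657 to 809 in PSC, 633 to 1005 in PP1, 604 to 946 in PP2, against 1125 to 1401 in MSC, all PSC, PP1 and PP2 libraries lying below all MSC libraries. Hk1 fell in PSC at -0.84 ± 0.17 against MSC (adjusted p = 0.00115), and was -0.12 ± 0.17 against PP1 (adjusted p = 0.637) and -0.02 ± 0.17 against PP2 (adjusted p = 0.944). The inducible Hk2 had 166 to 547 in PSC, 0 to 189 in PP1, 45.4 to 145 in PP2, against 352 to 757 in MSC, with PP1 replicate 4 at 0 reads, which allows up to 4.20 normalized counts (3 reads, counting error only). All PSC libraries of Hk2 lay above all PP2 libraries, and they overlapped PP1 and MSC. Hk2 was not called in PSC, at 2.73 ± 1.13 against PP1 (adjusted p = 0.0746), 1.53 ± 1.13 against PP2 (adjusted p = 0.334) and -0.81 ± 1.13 against MSC (adjusted p = 0.662). It passed against PP1 with a pseudocount of 8 or libraries rescaled to equal totals, and also without PP1 replicate 1 or 2 (adjusted p = 0.0352 to 0.043). It passed against PP2 without PP1 replicate 4 (adjusted p = 0.0138). Gpi1, glucose-6-phosphate isomerase, was nearly level, with 6367 to 7707 in PSC, 6306 to 7195 in PP1, 6481 to 6842 in PP2, against 5566 to 6865 in MSC, and its log2 difference in PSC was 0.10 ± 0.09 against PP1 (adjusted p = 0.446), 0.11 ± 0.09 against PP2 (adjusted p = 0.38) and 0.18 ± 0.09 against MSC (adjusted p = 0.129).

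The 3 phosphofructokinase isozymes, which commit sugar to glycolysis, parted from one another. The liver type Pfkl had 3905, 3129.8, 2202 and 2750.2 in PSC, 785, 597, 766 and 473 in PP1, 558, 666, 659 and 749.6 in PP2, against 1363, 1610.5, 1623 and 1336 in MSC. Every PSC library was above all others and every MSC library above all of PP1 and PP2. For Pfkl the log2 difference was 2.19 ± 0.18 against PP1 (adjusted p = 2.31e-08), 2.16 ± 0.18 against PP2 (adjusted p = 2.55e-08) and 0.99 ± 0.18 against MSC (adjusted p = 0.000576). The muscle type Pfkm, by contrast, had 1249, 1219, 1406 and 1506 in PSC, 1046, 1205, 1433 and 1140.2 in PP1, 864, 1169.8, 1659.6 and 1435 in PP2, against 1202, 1182, 1420.2 and 1161 in MSC. These 4 groups overlapped throughout, and the log2 difference of Pfkm in PSC was 0.16 ± 0.17 against PP1 (adjusted p = 0.517), 0.11 ± 0.17 against PP2 (adjusted p = 0.685) and 0.11 ± 0.17 against MSC (adjusted p = 0.68). The platelet type Pfkp had 531, 396, 276 and 487 in PSC, 590.0, 431, 977 and 817 in PP1, 525, 606, 732 and 953 in PP2, against 553, 553, 747 and 760.1 in MSC. Its PSC libraries lay below all MSC libraries and overlapped PP1 and PP2. Pfkp was -0.71 ± 0.27 against PP1 (adjusted p = 0.0509), -0.74 ± 0.27 against PP2 (adjusted p = 0.0402) and -0.65 ± 0.27 against MSC (adjusted p = 0.082) in PSC, a fall by the test relative to PP2 alone among these. The call against PP2 was lost with no filter on low values, a fit of just the 8 libraries or PP2 replicates 1 and 3 both left out, and also without PSC replicate 2 or 3, or PP2 replicate 3 or 4 (adjusted p = 0.0504 to 0.134). Against PP1 it passed with a pseudocount of 8, a minimum of 50 in 4 libraries, libraries rescaled to equal totals, edgeR, DESeq2 or PP2 replicates 1 and 3 both left out, and also without PSC replicate 1, or PP1 replicate 2, or PP2 replicate 1 or 4 (adjusted p = 0.0132 to 0.0476). Against MSC it passed with a fit of just the 8 libraries (adjusted p = 0.0372). Pfkm and Pfkp overlap genes on the opposite strand (Senp1 and Pitrm1), and the strand setting of the counting is not given in the sources used here.

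Pfkfb3 and Pfkfb4 make fructose 2,6-bisphosphate, the activator of phosphofructokinase. Pfkfb3 had 1376 to 3196 in PSC, 714 to 1102 in PP1, 950.2 to 1532 in PP2, against 1329.9 to 2276 in MSC and rose in PSC at 1.05 ± 0.24 against PP1 (adjusted p = 0.00202) and 0.66 ± 0.24 against PP2 (adjusted p = 0.0394), and was 0.16 ± 0.24 against MSC (adjusted p = 0.69). The call against PP2 was lost with no filter on low values, libraries rescaled to equal totals or a fit of just the 8 libraries, and also without PSC replicate 1 or 2, or PP2 replicate 1, 2 or 4 (adjusted p = 0.0531 to 0.169). Pfkfb4 had 34.6 to 159 in PSC, 70 to 135 in PP1, 66.9 to 274 in PP2, against 102 to 143 in MSC and overlapped in all groups, at -0.50 ± 0.56 against PP1 (adjusted p = 0.545), -0.86 ± 0.56 against PP2 (adjusted p = 0.265) and -0.74 ± 0.56 against MSC (adjusted p = 0.372).

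Aldolases split fructose 1,6-bisphosphate into the trioses. Aldoa, the main form of muscle and of most tissues, had 26656, 27358, 20826 and 29119 in PSC, 13674, 14832, 13469 and 13579 in PP1, 16308, 13715, 14254 and 14625 in PP2, against 11108, 13628, 11434 and 13816 in MSC. All PSC libraries were above the rest, and PP1, PP2 and MSC lay close together. For Aldoa the log2 difference was 0.89 ± 0.11 against PP1 (adjusted p = 2.34e-06), 0.81 ± 0.11 against PP2 (adjusted p = 7.36e-06) and 1.05 ± 0.11 against MSC (adjusted p = 1.52e-06). Aldoc, the form best known from brain, had 2673, 3058, 1692 and 2697 in PSC, 283, 468, 39.4 and 0 in PP1, 197, 65.4, 167 and 42.6 in PP2, against 491, 752, 419 and 476 in MSC. PSC lay far above every other library, MSC lay above all PP2 libraries, and PP1 ran from 0 to 468. Aldoc rose in PSC at 5.68 ± 1.21 against PP1 (adjusted p = 0.00122) and 4.64 ± 1.21 against PP2 (adjusted p = 0.0058), and was 2.24 ± 1.21 against MSC (adjusted p = 0.19). With PP1 replicate 4 at 0 reads, the size against PP1 hangs on the added count and on single libraries. It was 4.86 with a pseudocount of 8, 3.67 with edgeR and 4.11 with libraries rescaled to equal totals. It was 3.82 without PP1 replicate 4, 6.53 without PP1 replicate 1 and 6.78 without PP1 replicate 2, and stayed called in each. The difference from PP2 was 5.52 with PP2 replicates 1 and 3 both left out. Against MSC, Aldoc passed with a pseudocount of 8, libraries rescaled to equal totals, a fit of just the 8 libraries or edgeR, and also without PP1 replicate 4 (adjusted p = 6.71e-05 to 0.0469). Tpi1, triose phosphate isomerase, had 21693, 21219.5, 16423 and 18488 in PSC, 7939, 7245, 6137 and 6623 in PP1, 6822, 6611, 7746 and 7155 in PP2, against 8383, 9617, 8954 and 9533 in MSC. PSC stood above all others, and all MSC libraries lay above all of PP1 and PP2. For Tpi1 the log2 difference was 1.48 ± 0.10 against PP1 (adjusted p = 2.08e-09), 1.45 ± 0.10 against PP2 (adjusted p = 2.40e-09) and 1.09 ± 0.10 against MSC (adjusted p = 7.14e-07). Aldoa and Tpi1 also overlap opposite-strand genes, Fam57b with 0 and Spsb2 with 237 normalized counts on average in PSC.

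Lower glycolysis, from the trioses to pyruvate, was higher in PSC nearly throughout: 5 of its 6 genes rose in PSC relative to each other group, with Eno2 the exception. The shares of all tested genes that rose were 16.1% against PP1, 17.6% against PP2 and 12.1% against MSC. The median log2 difference of the 6 was 1.22 against PP1, 1.07 against PP2 and 0.78 against MSC, beside 0.04, 0.08 and -0.18 over all tested genes. Gapdh, which oxidizes glyceraldehyde 3-phosphate, had 50729 to 62823 in PSC, 31707 to 34060.0 in PP1, 30090.1 to 32930.4 in PP2, against 31222 to 37082 in MSC, with all PSC libraries above all others. For Gapdh the log2 difference was 0.85 ± 0.09 against PP1 (adjusted p = 7.21e-07), 0.90 ± 0.09 against PP2 (adjusted p = 3.31e-07) and 0.77 ± 0.09 against MSC (adjusted p = 9.23e-06), so this gene, widely used to scale other measurements, differed between these populations. Pgk1, phosphoglycerate kinase, makes the first ATP of the pathway's second stage, and had 28778, 27195, 22352 and 25135 in PSC, 8655, 8149, 6571 and 6788 in PP1, 9967, 7737, 6967 and 7915 in PP2, against 9836, 11059.9, 8445 and 10371 in MSC. PSC lay above all other libraries by a wide margin. For Pgk1 the log2 difference was 1.78 ± 0.12 against PP1 (adjusted p = 2.01e-09), 1.67 ± 0.12 against PP2 (adjusted p = 4.03e-09) and 1.38 ± 0.12 against MSC (adjusted p = 3.98e-07), or 3.44-fold, 3.19-fold and 2.61-fold in that order. Pgam1, phosphoglycerate mutase, had 16650.0, 16900.0, 11634 and 14560.4 in PSC, 6961, 5904, 4750.4 and 5967 in PP1, 6314, 5063, 5239.9 and 5319 in PP2, against 5741, 6381, 5118 and 6139.9 in MSC. PP1, PP2 and MSC overlapped, and PSC stood above them. For Pgam1 the log2 difference was 1.34 ± 0.13 against PP1 (adjusted p = 1.46e-07), 1.44 ± 0.13 against PP2 (adjusted p = 5.69e-08) and 1.34 ± 0.13 against MSC (adjusted p = 7.84e-07).

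Enolases make phosphoenolpyruvate. Eno1, the ubiquitous form, had 31262, 31859.9, 30388 and 33776 in PSC, 12486, 13082, 15997 and 14293 in PP1, 13637, 12388, 16544 and 17023 in PP2, against 16788, 17060.5, 22374 and 20114 in MSC. The PSC libraries were the 4 highest, and all MSC libraries lay above all PP1 libraries. For Eno1 the log2 difference was 1.19 ± 0.12 against PP1 (adjusted p = 2.00e-07), 1.11 ± 0.12 against PP2 (adjusted p = 5.18e-07) and 0.75 ± 0.12 against MSC (adjusted p = 0.000139). Eno2, the neuronal form, ran opposite, with 84.8, 99.6, 76.4 and 0 in PSC, 275, 193, 167 and 141 in PP1, 331, 334, 119 and 408 in PP2, against 117, 101, 168 and 115 in MSC. Every PSC library was below every other library, and PSC replicate 4 had no read, which allows up to 3.48 normalized counts. Eno2 fell in PSC at -3.25 ± 1.03 against PP2 (adjusted p = 0.0199), and was -2.73 ± 1.03 against PP1 (adjusted p = 0.0501) and -2.11 ± 1.03 against MSC (adjusted p = 0.143). Against PP2 the call was lost with a fit of just the 8 libraries, and also without PP2 replicate 4 (adjusted p = 0.0509 to 0.128). The log2 difference against PP2 was -2.46 with a pseudocount of 8, -2.19 with edgeR, -1.90 with libraries rescaled to equal totals, -1.64 without PSC replicate 4 and -3.85 without PSC replicate 2. Against PP1 it passed with a pseudocount of 8, a minimum of 50 in 4 libraries or libraries rescaled to equal totals, and also without PSC replicate 1, 2 or 3, or PP2 replicate 3 (adjusted p = 0.012 to 0.0463). Pkm, pyruvate kinase of muscle and growing cells, had 46949, 53956, 43519 and 51063 in PSC, 20589, 20790.0, 20298 and 20611 in PP1, 22484, 23380.0, 23952 and 25918 in PP2, against 25324, 30480.0, 28337 and 29376 in MSC. PSC again led, all PP2 libraries were above all PP1 libraries, and MSC overlapped PP2 only. For Pkm the log2 difference was 1.24 ± 0.09 against PP1 (adjusted p = 3.39e-09), 1.03 ± 0.09 against PP2 (adjusted p = 3.92e-08) and 0.78 ± 0.09 against MSC (adjusted p = 5.66e-06). The table has 1 row for Pkm and cannot separate its M1 and M2 splice forms.

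**Figure D3:**
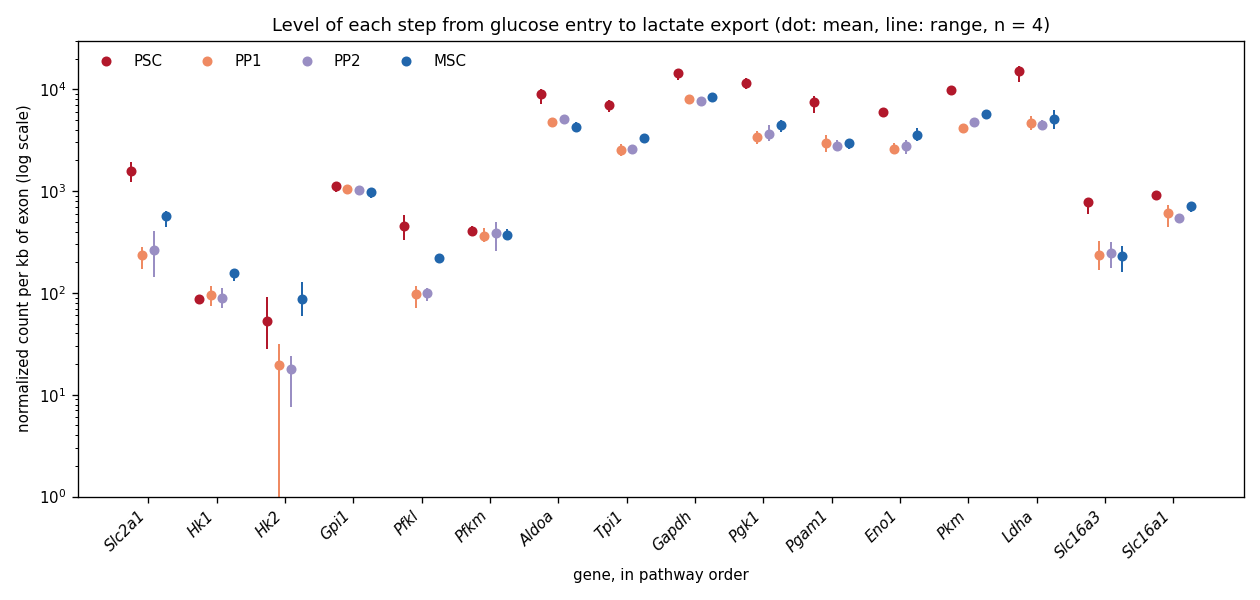
Mean level per kilobase of exon, on a log axis, of each step from glucose entry to lactate export in the 4 groups, with lines for the range of 4 libraries. The steps from Aldoa to Ldha are the highest in all groups, and the Hk2 line of PP1 is drawn down to 1 because 1 library had no read.

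At the branch from pyruvate, Ldha rose in PSC relative to each other group and its partner Ldhb relative to none. Ldha, the lactate dehydrogenase subunit that favours lactate formation, had 52645, 56449.5, 39294 and 51218 in PSC, 17859.9, 17225, 13243 and 13663 in PP1, 14123, 13463, 16650.1 and 14189 in PP2, against 15266, 20443, 13596 and 18324 in MSC. Each PSC library exceeded the other 12, which overlapped one another. For Ldha the log2 difference was 1.69 ± 0.14 against PP1 (adjusted p = 2.25e-08), 1.76 ± 0.14 against PP2 (adjusted p = 1.13e-08) and 1.57 ± 0.14 against MSC (adjusted p = 4.01e-07). Ldhb, the subunit that favours pyruvate, had 1543, 1215, 1462 and 1440.1 in PSC, 1737, 1696, 1646 and 2559 in PP1, 1395, 2084, 1507 and 1619 in PP2, against 2544, 1948, 1897 and 2244 in MSC. PSC lay below all PP1 and all MSC libraries and overlapped PP2. Ldhb fell in PSC at -0.60 ± 0.16 against MSC (adjusted p = 0.00764), and was -0.41 ± 0.16 against PP1 (adjusted p = 0.0517) and -0.21 ± 0.16 against PP2 (adjusted p = 0.335). Against PP1 it passed with a minimum of 50 in 4 libraries, libraries rescaled to equal totals, DESeq2 or PP2 replicates 1 and 3 both left out, and also without PP1 replicate 3, or PP2 replicate 1 or 2 (adjusted p = 0.0245 to 0.0489).

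Pdk1 is a kinase that switches pyruvate dehydrogenase off and is a known HIF target. It had 3059, 2642, 2843 and 2778 in PSC, 2897, 2187, 2337 and 2143 in PP1, 2289, 2122, 2526 and 2214 in PP2, against 2199, 2227, 2147 and 2030.5 in MSC. PSC was above all PP2 and MSC libraries, and 1 PP1 library reached the PSC range. For Pdk1 the log2 difference was 0.25 ± 0.11 against PP1 (adjusted p = 0.0778), 0.31 ± 0.11 against PP2 (adjusted p = 0.0306) and 0.39 ± 0.11 against MSC (adjusted p = 0.00916), a rise against PP2 and MSC of at most 1.31-fold. The call against PP2 was lost with libraries rescaled to equal totals, and also without PSC replicate 1 or 3, or PP2 replicate 2 or 4 (adjusted p = 0.0529 to 0.144). Against PP1 it passed without PP1 replicate 1 (adjusted p = 0.0118). Pdha1, the catalytic subunit that this kinase acts on, had 1634, 1899.8, 2125 and 2066 in PSC, 2616, 2222, 2479.7 and 2029.7 in PP1, 1952, 2363, 2694 and 2101 in PP2, against 1376, 1489, 1550.4 and 1499 in MSC. All MSC libraries were below all others, and PSC overlapped PP1 and PP2. Pdha1 rose in PSC at 0.38 ± 0.12 against MSC (adjusted p = 0.0279), and was -0.28 ± 0.12 against PP1 (adjusted p = 0.0986) and -0.23 ± 0.12 against PP2 (adjusted p = 0.159). The call against MSC was lost without PSC replicate 2, 3 or 4, or MSC replicate 1, 2 or 4 (adjusted p = 0.0521 to 0.0862), and against PP1 the gene passed as a fall with libraries rescaled to equal totals (adjusted p = 0.042).

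Among the genes of oxygen sensing, Hif1a and Egln1 were called in comparisons of PSC. Of the 5 genes 2 rose in PSC relative to PP1, the same number relative to PP2 and none relative to MSC, and none fell. Among all tested genes 16.1, 17.6 and 12.1% rose in that order of comparisons, and 15.1, 15.2 and 14.2% fell. With so few genes, these counts cannot be told apart from such shares. Hif1a encodes the broadly expressed HIF alpha subunit and had 6142, 6339, 5928 and 5339 in PSC, 4014, 3934, 4227 and 3594 in PP1, 4413, 4713, 4104 and 4683 in PP2, against 6045, 5268, 6112 and 5580.5 in MSC. PSC and MSC overlapped, and both lay above all PP1 and PP2 libraries. For Hif1a the log2 difference was 0.59 ± 0.09 against PP1 (adjusted p = 3.50e-05), 0.41 ± 0.09 against PP2 (adjusted p = 0.00137) and 0.05 ± 0.09 against MSC (adjusted p = 0.763). Epas1, which encodes HIF-2 alpha, had 206, 121, 259 and 246 in PSC, 43.6, 505, 136 and 263 in PP1, 0, 253, 0 and 249 in PP2, against 1049, 1086, 1286 and 945 in MSC. All MSC libraries were at least 945, all others at most 505, and PP2 replicates 1 and 3 had no read, which allows up to 3.30 and 3.98 normalized counts. Epas1 was not called in PSC, at 0.25 ± 1.42 against PP1 (adjusted p = 0.921), 3.66 ± 1.42 against PP2 (adjusted p = 0.0546) and -2.43 ± 1.42 against MSC (adjusted p = 0.229). Against PP2 it passed with a minimum of 50 in 4 libraries, and also without PP2 replicate 2 or 4 (adjusted p = 0.00813 to 0.0483). Against MSC it passed with libraries rescaled to equal totals, a fit of just the 8 libraries or PP2 replicates 1 and 3 both left out (adjusted p = 7.18e-05 to 0.0121).

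Egln1 encodes PHD2, the main prolyl hydroxylase acting on HIF, and had 2249, 2318, 1975 and 1941 in PSC, 1036, 1726, 1236 and 1051 in PP1, 1279, 1513, 1243 and 1880.4 in PP2, against 1544, 1732, 1917 and 1762 in MSC. Every PSC library was above all others, which overlapped. For Egln1 the log2 difference was 0.78 ± 0.16 against PP1 (adjusted p = 0.000972), 0.54 ± 0.16 against PP2 (adjusted p = 0.015) and 0.29 ± 0.16 against MSC (adjusted p = 0.212). The call against PP2 was lost with PP2 replicates 1 and 3 both left out (adjusted p = 0.213), and against MSC Egln1 passed with a fit of just the 8 libraries (adjusted p = 0.046). Egln3 encodes PHD3, itself a known HIF target, and had 118, 153, 229 and 82.5 in PSC, 294, 232, 123 and 195 in PP1, 86.8, 221, 257 and 325 in PP2, against 120.1, 218, 249 and 206 in MSC. The 4 groups overlapped, and the log2 difference of Egln3 was -0.56 ± 0.46 against PP1 (adjusted p = 0.394), -0.55 ± 0.46 against PP2 (adjusted p = 0.397) and -0.49 ± 0.46 against MSC (adjusted p = 0.487). Vhl, which recruits hydroxylated HIF for degradation, had 1926 to 2236 in PSC, 1995 to 2418 in PP1, 2069 to 2565 in PP2, against 1641 to 2004 in MSC, with -0.10 ± 0.11 against PP1 (adjusted p = 0.548), -0.18 ± 0.11 against PP2 (adjusted p = 0.229) and 0.11 ± 0.11 against MSC (adjusted p = 0.526).

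Among the 4 other hypoxia targets, Bnip3 and Ddit4 rose in PSC relative to each other group, and Ankrd37 and Ndrg1 were not called. The shares of all tested genes that rose were 16.1% against PP1, 17.6% against PP2 and 12.1% against MSC. Bnip3, a mitochondrial protein that promotes mitophagy, had 13739.6, 15809, 12885 and 14494 in PSC, 4421, 3424, 3857 and 2845 in PP1, 2996, 2730.0, 4410.1 and 3081 in PP2, against 4547, 5232, 4052 and 5185 in MSC. No library outside PSC came near, the lowest PSC value being 12885 and the highest of the others 5232. For Bnip3 the log2 difference was 1.98 ± 0.15 against PP1 (adjusted p = 4.76e-09), 2.13 ± 0.15 against PP2 (adjusted p = 1.65e-09) and 1.59 ± 0.15 against MSC (adjusted p = 5.71e-07). Ddit4, also called REDD1, restrains mTORC1 under stress, and had 6669, 6989.7, 4945 and 5886 in PSC, 1954, 1501, 2002 and 1251 in PP1, 1915, 1305, 1678 and 1237 in PP2, against 3624, 3495, 2916 and 3568 in MSC. PSC came first, then MSC, then PP1 and PP2 together. For Ddit4 the log2 difference was 1.88 ± 0.16 against PP1 (adjusted p = 4.18e-08), 2.01 ± 0.16 against PP2 (adjusted p = 1.69e-08) and 0.84 ± 0.16 against MSC (adjusted p = 0.000945). Ankrd37 was near the detection limit, with 6.7 to 54.6 in PSC, 0 to 64.5 in PP1, 0 to 60.2 in PP2, against 25.7 to 41.2 in MSC and 2 libraries at 0 in PP1 and 2 in PP2. Its log2 difference was 2.31 ± 1.49 against PP1 (adjusted p = 0.266), 2.01 ± 1.49 against PP2 (adjusted p = 0.337) and -0.30 ± 1.49 against MSC (adjusted p = 0.914). Ndrg1, a stress-response gene, had 392 to 1024 in PSC, 401 to 1197 in PP1, 487 to 872 in PP2, against 1038 to 1406 in MSC and -0.22 ± 0.33 against PP1 (adjusted p = 0.659), 0.06 ± 0.33 against PP2 (adjusted p = 0.91) and -0.87 ± 0.33 against MSC (adjusted p = 0.059). Against MSC, Ndrg1 passed as a fall with a pseudocount of 8 or a fit of just the 8 libraries, and also without PSC replicate 3 or 4, or PP1 replicate 1 (adjusted p = 0.0269 to 0.0497). Ankrd37 overlaps Ufsp2 on the opposite strand, which averaged 1272 normalized counts in PSC.

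Isozyme partners can be compared per kilobase of exon within a library, which is a description with no test here. Ldha made up 92.7 to 95.7% of the lactate dehydrogenase level per kilobase in PSC, 71.7 to 83.0% in PP1, 75.4 to 84.0% in PP2, against 74.0 to 83.3% in MSC. Only the PSC range stood apart from the other 3. As a log2 ratio of Ldha to Ldhb this was 4.06 ± 0.32 in PSC, 1.96 ± 0.44 in PP1, 2.08 ± 0.34 in PP2, against 1.89 ± 0.34 in MSC (SD, n = 4 each). Pfkl made up 42.8 to 58.6% of the phosphofructokinase level in PSC, 15.0 to 24.8% in PP1, 15.2 to 21.9% in PP2, against 33.1 to 37.9% in MSC. Per kilobase, the muscle type led in all PP1, PP2 and MSC libraries, whereas in PSC Pfkl led in replicates 1 and 2 and Pfkm in replicates 3 and 4. The log2 ratio of Pfkl to Pfkm was 0.13 ± 0.45 in PSC, -1.90 ± 0.36 in PP1, -1.93 ± 0.30 in PP2, against -0.74 ± 0.13 in MSC, and the PSC mean was -0.04 without replicate 1. This order depends on the exon length, which merges all annotated exons of a gene: 6.675 kb for Pfkl and 3.34 kb for Pfkm. By normalized count, Pfkl exceeded Pfkm in every PSC and MSC library, and Pfkm exceeded Pfkl in every PP1 and PP2 library.

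Among transporters, the log2 ratio of Slc2a1 to Slc2a3 was 7.03 ± 1.32 in PSC, 2.84 ± 0.20 in PP1, 2.80 ± 0.55 in PP2, against 4.89 ± 0.41 in MSC. No PSC library overlapped another group in this ratio. Slc16a1 and Slc16a3 were nearly balanced in PSC, at a log2 ratio of 0.24 ± 0.28, whereas Slc16a1 led in PP1 (1.39 ± 0.26), PP2 (1.17 ± 0.36) and MSC (1.65 ± 0.46). Of the HIF subunits, Hif1a made up 95.4 to 98.0% of the pair with Epas1 in PSC, 88.1 to 98.9% in PP1, 94.6 to 100% in PP2, against 81.8 to 84.8% in MSC. Here MSC was the group that stood apart.

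**Figure D4:**
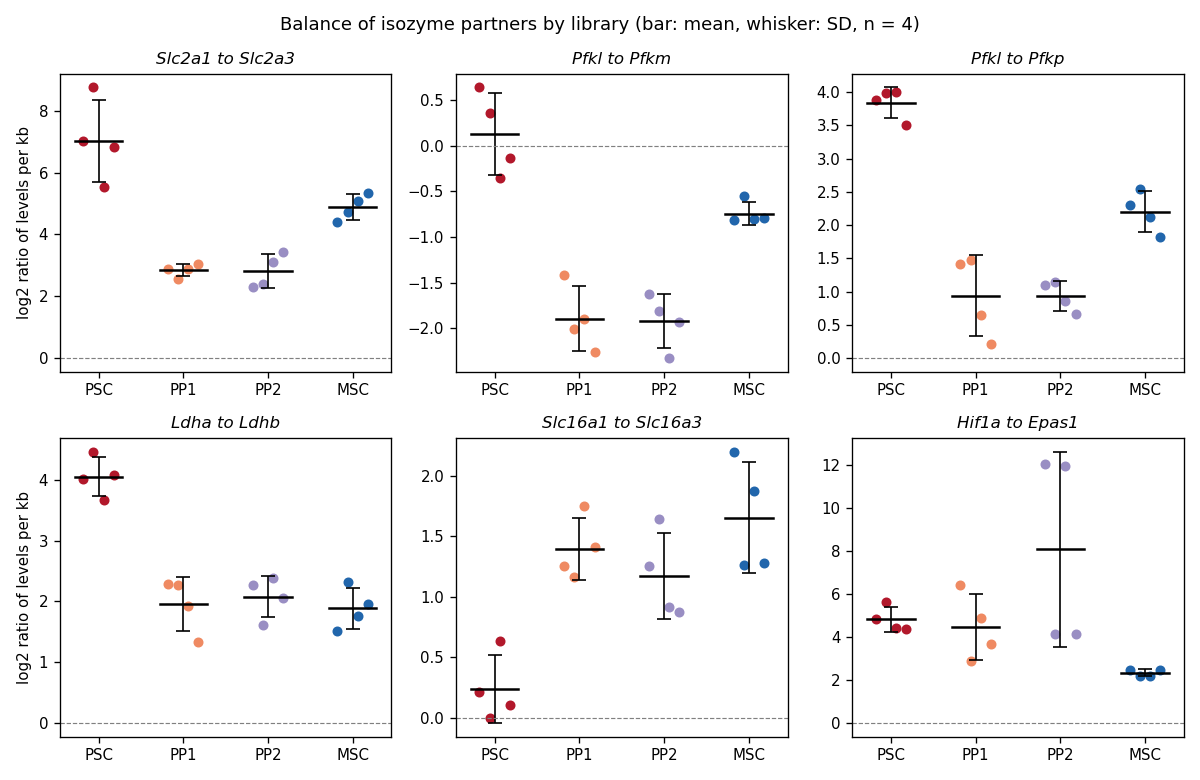
Log2 ratio of the levels per kilobase of isozyme partners in each library (points), with group means (bars) and the SD of 4 libraries (whiskers), and a dashed line at equal levels. The Ldha to Ldhb ratio averages 4.06 in PSC and between 1.89 and 2.08 in the other groups.

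By level per kilobase of exon, Ldha (15076), Gapdh (14369), Pgk1 (11526), Pkm (9772) and Aldoa (8928) led the 34 genes in PSC. The same 5 genes averaged 5108, 8425, 4424, 5675 and 4293 per kilobase in MSC, in that order of genes. The hexokinases stood far below in PSC, at 86.7 for Hk1 and 52.9 for Hk2, and Eno2 was the lowest of the 34 at 13.9 per kilobase. The order among the leading genes depends on the merged exon length used. By mean normalized count in PSC, Gapdh (59387) stood above Ldha (49902), and Eno1 (31821) above Aldoa (25990) and Pgk1 (25865).

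Between the progenitors themselves, limma called none of the 34 genes in PP1 relative to PP2, where 0.834% of all genes were called (0.478% higher and 0.355% lower). Unadjusted p was under 0.05 for 2 of the 34 (Pkm and Epas1), and edgeR and DESeq2 on recovered reads also called 0. The smallest adjusted p among the 34 was 0.311, and 1 of them (Pkm) had no overlap between PP1 and PP2 libraries, as had 4.74% of all genes. This does not show that PP1 and PP2 express these genes alike.

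Relative to MSC, 13 of the 34 genes fell and 1 rose in PP1, where 12.6% of all genes fell and 8.88% rose (21.4% called). In PP2, 11 fell and 1 rose, where 14.7% of all genes fell and 9.28% rose (24% called). The other 20 genes in PP1 and 22 in PP2 were not called. Between PP1 and MSC, 13 of the 34 genes had no overlap of libraries (30.1% of all genes), and 14 had none between PP2 and MSC (30.5%), shares not far from those of all genes. Pdha1 was the gene that rose, at 0.65 ± 0.12 against MSC (adjusted p = 0.00074) in PP1 and 0.61 ± 0.12 against MSC (adjusted p = 0.00117) in PP2. Slc2a1 fell at -1.29 ± 0.26 against MSC (adjusted p = 0.00124) in PP1 and -1.20 ± 0.26 against MSC (adjusted p = 0.00205) in PP2. Pfkl fell at -1.20 ± 0.18 against MSC (adjusted p = 9.84e-05) in PP1 and -1.17 ± 0.18 against MSC (adjusted p = 0.00011) in PP2. Ddit4 fell at -1.04 ± 0.16 against MSC (adjusted p = 0.00015) in PP1 and -1.17 ± 0.16 against MSC (adjusted p = 3.78e-05) in PP2. Smaller falls were those of Hif1a, at -0.54 ± 0.09 against MSC (adjusted p = 0.000192) in PP1 and -0.36 ± 0.09 against MSC (adjusted p = 0.00556) in PP2. The median log2 difference over all genes was itself -0.18 in PP1 and -0.19 in PP2, and it moved to 0.0028 and -0.01 when libraries were rescaled to equal totals. After that rescaling 11 falls and 1 rise were left in PP1 and 8 falls and 3 rises in PP2. Of all called genes, 41.4% were higher in PP1 than in MSC and 38.7% in PP2 than in MSC, and 55.3% and 52.3% after that rescaling.

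Several of these falls were less firm, with log2 differences here of PP1 or PP2 minus MSC. In PP1 against MSC, Hk2 was -3.54 ± 1.13 against MSC (adjusted p = 0.0311), a call lost with a fit of just the 8 libraries, and also without MSC replicate 1, 2 or 3 (adjusted p = 0.0529 to 0.0981). Its log2 difference was -1.73 without PP1 replicate 4, -4.24 without PP1 replicate 1 and -4.26 without PP1 replicate 2. Aldoc was -3.44 ± 1.21 against MSC (adjusted p = 0.0492), a call lost with a pseudocount of 0.5, no filter on low values, a fit of just the 8 libraries, edgeR, DESeq2 or PP2 replicates 1 and 3 both left out, and also without PSC replicate 1, 2, 3 or 4, or PP1 replicate 3 or 4, or PP2 replicate 1, 2, 3 or 4, or MSC replicate 1, 2, 3 or 4 (adjusted p = 0.0502 to 0.348). The size for Aldoc was -1.43 with edgeR, -1.57 without PP1 replicate 4, -4.29 without PP1 replicate 1 and -4.53 without PP1 replicate 2. The call of Egln1 was lost with libraries rescaled to equal totals, a fit of just the 8 libraries, edgeR or DESeq2, and also without PP1 replicate 1, 3 or 4, or MSC replicate 2, 3 or 4 (adjusted p = 0.0505 to 0.114). That of Pgk1 was lost with libraries rescaled to equal totals, and also without PP1 replicate 3 or 4, or MSC replicate 1, 2 or 4 (adjusted p = 0.0536 to 0.135), and that of Tpi1 with libraries rescaled to equal totals (adjusted p = 0.0784). In PP2 against MSC, Epas1 fell at -6.10 ± 1.42 against MSC (adjusted p = 0.00384), but its size rested on 2 libraries at 0. It was -4.59 with a pseudocount of 8, -3.10 with edgeR and -2.11 with PP2 replicates 1 and 3 both left out, -4.77 without either of them, -7.43 without PP2 replicate 2 and -7.42 without PP2 replicate 4. The call was lost with DESeq2 (adjusted p = 0.0622). The call of Ndrg1 was lost with no filter on low values, libraries rescaled to equal totals, edgeR or PP2 replicates 1 and 3 both left out, and also without PP1 replicate 2, or PP2 replicate 1, 2 or 3, or MSC replicate 1, 2, 3 or 4 (adjusted p = 0.0526 to 0.303). That of Slc16a1 was lost with libraries rescaled to equal totals or PP2 replicates 1 and 3 both left out, and also without PP2 replicate 1, 2 or 3, or MSC replicate 1, 2 or 3 (adjusted p = 0.0544 to 0.215). That of Eno1 was lost with libraries rescaled to equal totals, a fit of just the 8 libraries or PP2 replicates 1 and 3 both left out, and also without PP2 replicate 1 or 2, or MSC replicate 3 or 4 (adjusted p = 0.0758 to 0.118), that of Hif1a with libraries rescaled to equal totals or PP2 replicates 1 and 3 both left out (adjusted p = 0.0668 to 0.0686) and that of Tpi1 with libraries rescaled to equal totals (adjusted p = 0.101). Of the genes not called relative to MSC, 2 in PP1 and 7 in PP2 passed in at least 1 alternative. In PP1 these were Epas1 and Bnip3, both as falls. In PP2, Hk2, Aldoc, Pgk1, Pkm and Ldhb passed as falls, and Aldoa and Vhl as rises. Hk2 in PP2 passed with edgeR (adjusted p = 0.0319) and with DESeq2 (adjusted p = 0.00669). Several marker lists differed between the same groups, where 12.6% of all tested genes were lower and 8.88% higher in PP1 than in MSC, and 14.7 and 9.28% in PP2. All 12 chondrocyte, 6 hypertrophic cartilage and 5 Schwann cell markers were lower in PP1 and in PP2 than in MSC, as were all 10 immediate early genes. Of 8 osteoblast markers 5 were lower and 1 (Col1a1) higher in PP1, and 7 were lower in PP2. All 8 fibroblast markers were higher in PP1 and in PP2 than in MSC, with median log2 differences of 4.74 and 4.52. The part of these cell states in the falls was not tested.

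Genes of neighbouring pathways were followed with lists of their own, chosen like the 34 genes with earlier results of these data known. The counts of these lists stand beside shares over all tested genes of 16.1% higher and 15.1% lower in PSC than in PP1, 17.6 and 15.2% for PP2, and 12.1 and 14.2% for MSC. Of 34 further hypoxia-response genes, 16 rose and 5 fell in PSC relative to PP1, 15 rose and 6 fell relative to PP2, and 13 rose and 2 fell relative to MSC, with median log2 differences of 0.78, 0.67 and 0.43. P4ha2, a subunit of the collagen prolyl hydroxylase, had 16205, 17690.4, 13316 and 14707 in PSC, 5097, 4767, 3830.5 and 4439 in PP1, 4669, 5156, 4903 and 5707 in PP2, against 6696, 9082, 8099 and 8202 in MSC. PSC was above all others and MSC above all of PP1 and PP2. For P4ha2 the log2 difference was 1.77 ± 0.11 against PP1 (adjusted p = 8.19e-10) and 0.95 ± 0.11 against MSC (adjusted p = 9.76e-06), and its level was 3.02-fold that of PP2 (adjusted p = 3.03e-09). Plod2, which hydroxylates collagen lysines, had 22246, 23055, 17361 and 18194 in PSC, 5626, 6484, 5699.9 and 5948 in PP1, 5494, 7501, 7858 and 8443 in PP2, against 10046, 11512, 10152 and 10279 in MSC, in the same order of groups. For Plod2 the log2 difference was 1.76 ± 0.12 against PP1 (adjusted p = 2.04e-09), 1.47 ± 0.12 against PP2 (adjusted p = 1.99e-08) and 0.94 ± 0.12 against MSC (adjusted p = 2.20e-05). Mif, a cytokine, was 2.01 ± 0.17 against PP1 (adjusted p = 2.25e-08), 2.27 ± 0.17 against PP2 (adjusted p = 3.90e-09) and 1.41 ± 0.17 against MSC (adjusted p = 7.80e-06), and Higd1a, a mitochondrial protein, was 1.58 ± 0.14 against PP1 (adjusted p = 3.65e-08), 1.39 ± 0.14 against PP2 (adjusted p = 1.96e-07) and 1.16 ± 0.14 against MSC (adjusted p = 7.37e-06). Car12, a carbonic anhydrase of the cell surface, differed most from PP2, at 3.33 ± 0.31 against PP1 (adjusted p = 1.16e-07), 6.51 ± 0.31 against PP2 (adjusted p = 1.57e-11) and 2.32 ± 0.31 against MSC (adjusted p = 3.16e-05).

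**Figure D5:**
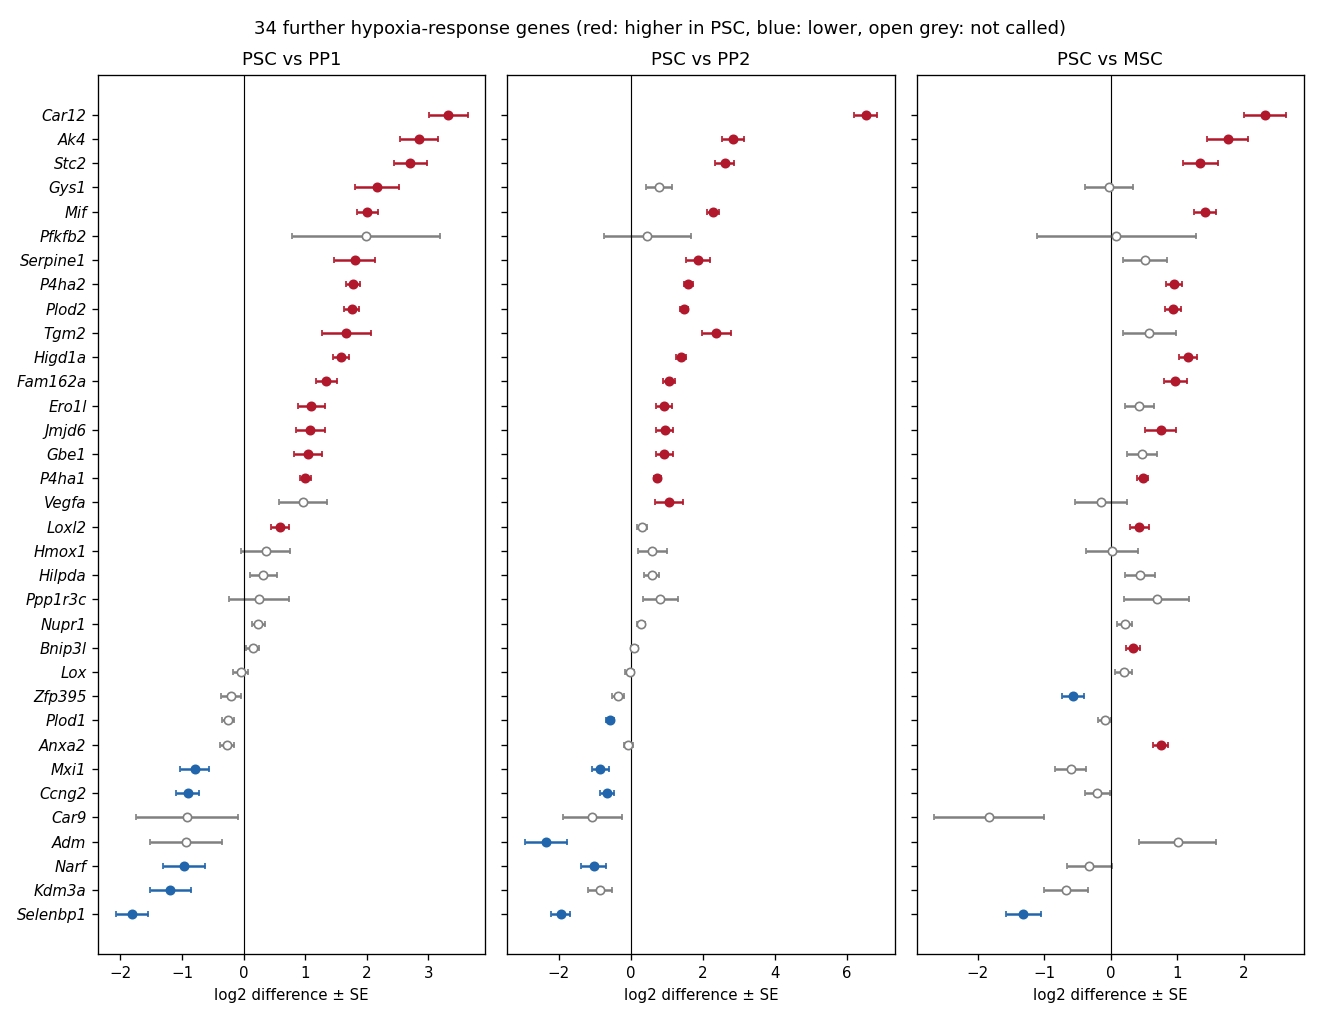
Log2 difference, with its standard error, of 34 further hypoxia-response genes between PSC and PP1, PSC and PP2, and PSC and MSC, coloured as in the plot of the glycolysis and hypoxia genes. Red points number 16, 15 and 13 from left to right, and blue points 5, 6 and 2.

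Of 8 regulators of HIF other than the genes above, 2 (Siah2 and Rbx1) rose in PSC relative to each other group and none fell. Siah2, a ubiquitin ligase that acts on prolyl hydroxylases, had 8806, 7652, 5349 and 7054 in PSC, 1118, 1606, 1324 and 1261 in PP1, 1229.9, 1046, 1331 and 673 in PP2, against 3043, 3009.6, 2591 and 2602 in MSC. PSC was above all others and MSC above all of PP1 and PP2. For Siah2 the log2 difference was 2.43 ± 0.18 against PP1 (adjusted p = 7.18e-09), 2.78 ± 0.18 against PP2 (adjusted p = 1.12e-09) and 1.34 ± 0.18 against MSC (adjusted p = 3.82e-05). Rbx1, a ring finger subunit of the ligase that holds the von Hippel-Lindau protein, was 0.39 ± 0.14 against PP1 (adjusted p = 0.0413), 0.58 ± 0.14 against PP2 (adjusted p = 0.00309) and 0.38 ± 0.14 against MSC (adjusted p = 0.0495). Its call was lost against PP1 with no filter on low values or libraries rescaled to equal totals, and also without PSC replicate 1, 2 or 4, or PP1 replicate 1, 3 or 4 (adjusted p = 0.0543 to 0.152), and against PP2 with PP2 replicates 1 and 3 both left out (adjusted p = 0.0533). Against MSC it was lost with a pseudocount of 0.5, no filter on low values, TMM rescaling, a fit of just the 8 libraries or edgeR, and also without PSC replicate 1, 2 or 4, or PP1 replicate 1, 2 or 4, or PP2 replicate 1, 2 or 4, or MSC replicate 1 or 3 (adjusted p = 0.0502 to 0.212). The pentose phosphate pathway, which makes NADPH and ribose from glucose 6-phosphate, had 4 of 7 genes higher in PSC than in PP1, 4 higher than in PP2, 4 higher than in MSC and none lower. Among these were transketolase (Tkt), at 0.82 ± 0.09 against PP1 (adjusted p = 1.28e-06), 0.75 ± 0.09 against PP2 (adjusted p = 3.71e-06) and 0.56 ± 0.09 against MSC (adjusted p = 0.000243), and phosphogluconate dehydrogenase (Pgd), at 0.76 ± 0.11 against PP1 (adjusted p = 3.79e-05), 0.73 ± 0.11 against PP2 (adjusted p = 5.30e-05) and 0.49 ± 0.11 against MSC (adjusted p = 0.0034).

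Of 18 tested side enzymes and further isozymes of glycolysis, 4 rose and 1 fell in PSC relative to PP1, 5 rose and 3 fell relative to PP2, and 3 rose and 2 fell relative to MSC. With so few genes, these counts lie near the shares over all tested genes given above, and the median log2 difference of the 18 was 0.14, 0.27 and -0.06. Pgm2, a phosphoglucomutase, was 1.27 ± 0.13 against PP1 (adjusted p = 3.62e-07), 1.27 ± 0.13 against PP2 (adjusted p = 3.72e-07) and 1.19 ± 0.13 against MSC (adjusted p = 3.48e-06). Bsg encodes basigin, the chaperone that brings the lactate carriers to the membrane, and was 0.42 ± 0.09 against PP1 (adjusted p = 0.000845), 0.41 ± 0.09 against PP2 (adjusted p = 0.000889) and 0.50 ± 0.09 against MSC (adjusted p = 0.000309). Of 11 genes that govern pyruvate entry into mitochondria, 4 rose and 2 fell in PSC relative to PP1, and 3 rose and 1 fell relative to PP2 and to MSC alike. Here 2 further pyruvate dehydrogenase kinases parted: Pdk3 rose in PSC at 0.75 ± 0.11 against PP1 (adjusted p = 3.90e-05), 0.62 ± 0.11 against PP2 (adjusted p = 0.000292) and 0.58 ± 0.11 against MSC (adjusted p = 0.000967), and Pdk2 fell at -0.96 ± 0.18 against PP1 (adjusted p = 0.000416), -0.76 ± 0.18 against PP2 (adjusted p = 0.00304) and -0.54 ± 0.18 against MSC (adjusted p = 0.0335). The Pdk2 call against PP2 was lost with PP2 replicates 1 and 3 both left out (adjusted p = 0.0536), and that against MSC with edgeR, and also without PSC replicate 1, 2 or 4, or MSC replicate 1, 2 or 3 (adjusted p = 0.0503 to 0.108). In the tricarboxylic acid cycle, 1 of 15 genes rose and 1 fell in PSC relative to PP1, 5 rose and 1 fell relative to PP2, and 8 rose and none fell relative to MSC. Of 5 tested genes of gluconeogenesis, 2 rose in PSC relative to PP1, 2 relative to PP2 and 1 relative to MSC, and none fell.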

How the data were processed

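RNA was measured by sequencing in 16 libraries, 4 in each of 4 groups. Per the labels' protocols, femur tissue was dissociated mechanically and with enzymes, cells were sorted by flow cytometry, RNA was extracted with RNeasy Plus Micro, and TruSeq RNA libraries were sequenced (HiSeq4000). Per the submitters' processing notes, the build was mm10 and the tools were TopHat2 2.0.11, HTSeq 0.6.1, bcl2fastq 2.17, DESeq2 1.6.3 and cutadapt, with no role or order stated. Of the annotation, filters, strand setting and handling of reads shared with pseudogenes nothing is known here.

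The deposited table holds signal values, which are read counts per gene that the authors scaled by a single size factor for each library. Values were whole multiples of each library's step within a tolerance of 1e-06, and dividing by it gave whole reads, 22.31 to 48.36 M per library. For a library at 0 reads, the level that 3 reads would give is stated as a limit that covers counting error only. No other interval for counting error is given, and the spread between libraries sets the precision. No 2 libraries of a group were duplicates: their counts differed by a mean chi-square per gene of 27.3 or more.

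Genes with at least 10 normalized counts in at least 4 libraries (13797) were fitted as log2(value + 1) with limma 3.58.1 (R 4.3.3, trend on intensity), with group as the single term over all 16 libraries, a plan written for normalized values. P-values were two-sided and adjusted by Benjamini-Hochberg within each of 6 comparisons, with a threshold of 0.05. The fit was tested on simulated data. Levels per kilobase used the merged length of all exons annotated for a gene in GENCODE M21, and no other length was tried. Upstream sequences came from RefSeq. Alternatives were a pseudocount of 0.5 or 8, no filter or a minimum of 50, TMM or equal-total rescaling, a replicate block, only the 8 libraries compared, edgeR 4.0.16 and DESeq2 1.42.0 on recovered reads, each library left out, and PP2 replicates 1 and 3 left out. The members and lists were chosen with earlier results of these data known. Values in every library were given for up to 4 genes per role that were called with no overlap in a PSC comparison, by size of difference, and for their isozyme partners, and up to 3 genes per other list and comparison could be named by adjusted p. Same-numbered libraries of different groups were not taken as pairs, since the labels do not tie them.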

Additional observations from a re-analysis of the deposited data

Results flagged for a closer look

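Each gene and group of 4 libraries was checked for a library whose gap to the nearest other exceeded Dixon's critical value as a share of the range. Of 136 such groups 7 had one, and chance alone gives about 1 in 20. In PSC, replicate 3 was low for Slc16a3, at 3159 normalized counts beside 4456 to 4591 in the other PSC libraries, and for Gapdh, at 50729 beside 61980 to 62823. In PP1, replicate 2 was high for Aldoa, at 14832 beside 13469 to 13674, and replicate 4 was high for Ldhb, at 2559 beside 1646 to 1737. In MSC, replicate 2 was low for Hk1, at 1125 beside 1383 to 1401, replicate 3 was high for Pfkm, at 1420.2 beside 1161 to 1202, and replicate 3 was low for Vhl, at 1641 beside 1968 to 2004. Over the 34 genes, PSC replicate 3 was the lowest PSC library in 16, against 6, 7 and 5 for replicates 1, 2 and 4. In the other groups the library most often lowest was PP1 replicate 4 (14 genes), PP2 replicate 1 (12) and MSC replicate 1 (15). The cause of each was not tested.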

How the results depend on the processing

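Over 27 alternatives and 6 comparisons, 5502 values of the 34 genes were recomputed: 5291 stayed on the same side of the threshold, 122 lost the call and 89 gained it. Where the main fit or the alternative made a call, 0 reversed direction. Direction was not checked where neither made a call. Every alternative kept the call of 18 of 19 genes in PSC against PP1, 16 of 22 in PSC against PP2, 16 of 18 in PSC against MSC, 9 of 14 in PP1 against MSC and 6 of 12 in PP2 against MSC. Leaving out 1 library gave 18 to 21, 19 to 23, 16 to 19, 10 to 14 and 9 to 15 called genes in the same order, and 0 of 34 in PP1 against PP2. Over all genes, PP1 against PP2 had 115 calls, with 28 from only the 8 libraries compared, 419 with DESeq2 and 93 to 180 with 1 library left out (180 without PP2 replicate 4). The cause was not tested. With PP2 replicates 1 and 3 both left out, PP2 against MSC had 8 called genes of the 34 and PSC against PP2 had 19. The mean log2 ratio of Pfkl to Pfkm in PSC was 0.13 over all 4 libraries, and ran from -0.041 (without PSC replicate 1) to 0.29 (without PSC replicate 3) with 1 left out.

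Rescaling to equal totals moved the median of all genes to -0.06, -0.03 and -0.07 for PSC against PP1, PP2 and MSC, and gave 19 higher and 5 lower of the 34, 17 and 3, and 17 and 3. The extra falls in PSC against PP1 were Pfkp, Eno2, Ldhb and Pdha1.

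With replicate number as a block, 24, 23 and 19 of the 34 were called for PSC against PP1, PP2 and MSC, 0 for PP1 against PP2, 14 for PP1 against MSC and 14 for PP2 against MSC, and over all genes PP1 against PP2 had 227 calls. The calls gained with it were Hk2, Pfkp, Eno2, Ldhb and Pdk1 in PSC against PP1 (adjusted p = 0.0334 to 0.049 with limma), Epas1 in PSC against PP2 (0.0332), Ndrg1 in PSC against MSC (0.00902), and Pgk1 and Pkm in PP2 against MSC (0.0116 and 0.0148), and none of the 34 lost a call. The labels do not tie same-numbered libraries, so the pairing was not established. Of 24 correlations between deviations of same-numbered libraries, from -0.018 to 0.149, 2 exceeded 0.1. In 20 of the 24, a library correlated best with its own number among the 4 libraries of the other group. That is more often than an even draw among the 4 would give, and the main fit does not use the number. The 24 share libraries and are not independent. A library at 0 reads allows up to 2.05 to 4.20 normalized counts, so lower levels were not detectable. Epas1, Eno2, Aldoc and Hk2 had libraries at 0 beside others of the same group well above that limit, and the cause was not tested.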

Other observations

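The other marker lists gave these values beside the results above. Among all tested genes, 16.1, 17.6 and 12.1% were higher in PSC than in PP1, PP2 and MSC, and 15.1, 15.2 and 14.2% lower. In PP1, 8.88% were higher than in MSC and 12.6% lower. Of 6 hypertrophic cartilage markers, 5 rose in PSC relative to PP1 and 5 relative to PP2, and relative to MSC 3 rose and 1 fell. Their summed level ran from 204657 to 294935 normalized counts in PSC, 27300.5 to 38727 in PP1, 14549 to 36951 in PP2 and 104127 to 151892 in MSC. Osteoblast markers summed to 529132 to 1132170 in PSC, 1473130 to 2408980 in PP1, 1326370 to 1943700 in PP2 and 531848 to 1241630 in MSC, and of the 8, 5 rose and 1 fell in PSC relative to PP1, 7 rose and 1 fell relative to PP2, and none passed relative to MSC. Col1a1, which averaged 807272 in PSC and 1785490 in PP1, made up nearly all of these sums and was the marker that fell, so the sums run opposite to Sp7, Phex, Ibsp, Dmp1 and Runx2, which rose relative to PP1 and to PP2. All 5 Schwann markers fell in PSC relative to MSC, whereas 2 rose relative to PP1 and 4 relative to PP2 and none fell. They summed to 299 to 1456 in PSC, 96.7 to 2404 in PP1, 43.7 to 219 in PP2 and 11870 to 18007 in MSC. Osteoclast markers summed to 593 to 1547 in PSC, 2768 to 15655 in PP1, 590.2 to 2534 in PP2 and 6083 to 7661 in MSC, and Calcr was at 0 in all libraries. These sums do not stand for most of the markers. Of 5 tested, 4 were higher in PP1 than in MSC and 0 lower. In PSC, 4 fell relative to PP1, 1 relative to PP2 and 1 relative to MSC, and none rose. The median log2 difference of PSC from MSC was 0.13. Skeletal muscle markers summed to 551 to 777 in PSC, 971 to 2946 in PP1, 3518 to 7731 in PP2 and 242 to 368 in MSC, with Tnnc2 and Myh4 at 0 in all libraries. Of 8 tested, 1 rose and 4 fell in PSC relative to PP1, and 1 rose and 6 fell relative to PP2. Relative to MSC 1 rose and 1 fell, with a median log2 difference of -0.57, opposite to the order of the sums.

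Erythroid, leukocyte and endothelial markers varied between libraries. Erythroid markers summed to 951 to 5415 in PSC, 565 to 9877 in PP1, 335 to 4109 in PP2 and 75.3 to 1403 in MSC. Leukocyte markers summed to 39.1 to 227 in PSC, 527 to 988 in PP1, 2.65 to 244 in PP2 and 70.2 to 137 in MSC, with Cd3e at 0 in all libraries. All PP1 sums lay above all others, and of 4 tested leukocyte markers 2 fell in PSC relative to PP1 and none rose, where 15.1% of all tested genes fell and 16.1% rose. Endothelial markers summed to 56.9 to 583 in PSC, 147 to 1047 in PP1, 43.5 to 313 in PP2 and 558 to 949 in MSC. The germ-cell paralogs Pgk2, Aldoart1 and Aldoart2 were listed at 0 in every library.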
